A study of Mus musculus with 6 samples.

Results

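Cxcl1, Cxcl2, Cxcl3, Cxcl5 and Csf3, the 5 genes described here, encode the signals with which macrophages call neutrophils out of the blood and have more of them made. They were taken by gene symbol, and all 5 were found among the 23699 rows of each table and passed the filter on low values. CXC chemokines that carry the amino acids glutamate, leucine and arginine ahead of their first cysteines (the ELR motif) bind the receptor Cxcr2 on neutrophils and draw them towards the source. Csf3, also known as G-CSF, acts through Csf3r on precursors in the bone marrow and raises neutrophil output. These genes are rapidly induced in macrophages through NF-kappaB, and their mRNAs are short-lived because AU-rich elements in their 3′ ends recruit decay factors such as tristetraprolin.

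Peritoneal macrophages, phagocytes of the abdominal cavity, came from C57Bl/6 mice that were knockout for the X-linked microRNA pair miR-221/222 (KO, genotype miR-221/222 -/Y) or wild type (WT). Cells of each genotype were naive, meaning untreated, were exposed for 4 h to 1000 ng/ml lipopolysaccharide (LPS), or were tolerized with 10 ng/ml LPS for 15 h, washed, rested for 2 h and then exposed to 1000 ng/ml for another 4 h. This bacterial cell wall component is sensed by Toll-like receptor 4, and cells that have been exposed to it respond differently to a second dose, which is called tolerance. Poly-A RNA was sequenced, and each of the 6 groups is 1 library, although the series speaks of triplicates; whether animals or cultures were pooled is not given, nor is how the macrophages were purified.

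Levels are FPKM (fragments per kilobase of transcript and per M mapped fragments) and carry the deposited interval, which covers counting error only. The intervals implied 17.6 to 24.9 M fragments per library, an estimate. The deleted genes Mir221 and Mir222 were listed at 0 FPKM in all 6 libraries, so these poly-A data give no check of the genotype. Of 9 macrophage markers in the tables all 9 were detected, with summed levels of 39923, 18903 and 11817 FPKM in the KO libraries (naive, LPS, tolerized) and 49761, 23614 and 17786 FPKM in the WT libraries. Lyz2 made up most of these sums, with 35949, 16240 and 8538 FPKM in KO and 45134.5, 19661 and 13872 FPKM in WT. Emr1, Itgam, Fcgr1 and Cd14 were higher in tolerized than in naive cells of both genotypes. Lyz2, Csf1r, Cd68, Mertk and Fcgr3 were lower. Of 12 neutrophil markers, 6 reached 2 FPKM in a library. These were S100a8, Csf3r, Mmp9, Mmp8, Camp and Retnlg, with highest levels of 341.4, 122.8, 116.2, 69.6, 8.85 and 2.46 FPKM. S100a9 and Ngp were listed at 0 in all 6 libraries, and Elane, Mpo, Ltf and Cxcr2 stayed at or below 0.15 FPKM. S100a8 had 65.2 to 341.4 FPKM in the same libraries. Whether an exact 0 in every library means absent RNA or a row left unfilled in processing was not tested. The summed neutrophil list was 329.2, 234.1 and 466.4 FPKM in the KO libraries (naive, LPS, tolerized) and 266.1, 167.2 and 397.5 FPKM in the WT libraries. Fewer cells of a type and less RNA per cell cannot be told apart in such bulk samples.

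The 4 chemokine genes sit in 1 cluster on mouse chromosome 5 (build mm9, 1-based). In order along it come Cxcl5 (chr5:91188325-91190651), the platelet chemokine genes Ppbp and Pf4, Cxcl3 (chr5:91215129-91217116), Cxcl15, Cxcl1 (chr5:91320271-91322141) and Cxcl2 (chr5:91332925-91334964). Csf3 lies elsewhere, at chr11:98562627-98564943. The promoters of Cxcl1, Cxcl2 and Cxcl3 are shown because these 3 genes were all induced by LPS but stood differently to one another after tolerization. Each holds the same 9 letters of a kappaB site, the motif bound by NF-kappaB. Below are the 120 bases before each gene's start on the plus strand (RefSeq, build GRCm38.p6, at chr5:90891125-90891244, chr5:90903779-90903898 and chr5:90785981-90786100). Capitals mark the kappaB match and, in Cxcl3, a TATAAA match.
Cxcl1: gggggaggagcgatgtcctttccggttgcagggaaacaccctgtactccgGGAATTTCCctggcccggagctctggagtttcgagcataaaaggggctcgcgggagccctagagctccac
Cxcl2: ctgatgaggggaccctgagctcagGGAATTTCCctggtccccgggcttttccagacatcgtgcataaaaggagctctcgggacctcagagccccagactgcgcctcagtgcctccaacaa
Cxcl3: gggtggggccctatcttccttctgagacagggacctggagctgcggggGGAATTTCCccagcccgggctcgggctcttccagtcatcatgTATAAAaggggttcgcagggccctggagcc

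The kappaB match began 70 bases before the start of Cxcl1, 96 before that of Cxcl2 and 72 before that of Cxcl3. The letters searched, GGAANTTCC on either strand, occurred in 305 of 32851 promoter windows of 300 bases, or 0.928%. None of the windows of Ppbp, Pf4 and Cxcl15, the other genes of the cluster, held them. TTGCNNAA (C/EBP) and TGANTCA (AP-1), found in 10.8% and 7.81% of windows, were not in the windows of Cxcl1, Cxcl2 or Cxcl3. TATAAA, found in 13.6% of windows, was present in that of Cxcl3 at 30 bases before the start, without overlapping the kappaB match. A match of letters is a description of the window, not evidence of binding, and a lack of one says nothing about the factor. Promoter windows for Cxcl5 and Csf3 were not used here.

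The deleted microRNAs share their seed, bases 2 to 8, which is shown in capitals and through which they recognise 3′ untranslated regions (RefSeq, build GRCm38.p6).
miR-221-3p: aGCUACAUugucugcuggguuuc
miR-222-3p: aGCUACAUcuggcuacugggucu

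The 7 bases that pair with this seed, ATGTAGC, had 0 matches in the 3′ UTRs of Cxcl1, Cxcl2, Cxcl3, Cxcl5 and Csf3 in the GRCm38 annotation. Among 3′ UTRs within 20% of each gene's length, 3.34% to 6.83% held a match. The AU-rich pentamer ATTTA, counted with overlaps, occurred 11 times in the 734 bases of the Cxcl2 3′ UTR, 7 times in Cxcl1, 6 times in Csf3 and 5 times each in Cxcl3 and Cxcl5. As many or more were found in 0.0915% of 3′ UTRs of like length for Cxcl2, 0.387% for Cxcl1, 1.5% for Csf3, 2.78% for Cxcl3 and 11.6% for Cxcl5.

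Cxcl2, also called MIP-2, was the most abundant of the 5 genes in every library. It stood at 230.9 FPKM (interval 223.1 to 238.7), 12287 FPKM and 3887 FPKM in the KO libraries (naive, LPS, tolerized), and at 38.2 FPKM (35.3 to 41.1), 21286 FPKM and 6767 FPKM in the WT libraries. With LPS it was the third most abundant gene of the WT library and ranked 6 in the KO library. Cxcl1, also called KC, had 52.8 FPKM (48.7 to 56.8), 4254 FPKM and 1786 FPKM in the KO libraries (naive, LPS, tolerized), and 6.50 FPKM (5.21 to 7.80), 7092 FPKM and 2408 FPKM in the WT libraries. For Cxcl1 and Cxcl2 alike, both LPS libraries were above both tolerized libraries, which were above both naive ones.

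Cxcl3, the close relative of Cxcl2, followed another order. Its level was 207.4 FPKM (199.7 to 215.1), 1366 FPKM and 2403 FPKM in the KO libraries (naive, LPS, tolerized), against 7.82 FPKM (6.45 to 9.19), 3330 FPKM and 6664 FPKM in the WT libraries. Within each genotype the tolerized library was the highest, but the KO tolerized library lay below the WT LPS library, so the LPS and tolerized groups overlapped.

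Cxcl5, known as LIX in the mouse, is best known from epithelial and mesenchymal cells and was far less abundant. It had 5.70 FPKM (4.75 to 6.65), 46.1 FPKM (43.7 to 48.5) and 123.3 FPKM (119.6 to 127.0) in the KO libraries (naive, LPS, tolerized), and 0.657 FPKM (0.363 to 0.950), 38.9 FPKM (36.5 to 41.3) and 260.9 FPKM (255.4 to 266.3) in the WT libraries. Csf3 had 10.8 FPKM (9.31 to 12.2), 136.3 FPKM (131.7 to 141.0) and 373.7 FPKM (366.5 to 381.0) in the KO libraries (naive, LPS, tolerized), and 0.206 FPKM (0.0217 to 0.390), 36.2 FPKM (33.6 to 38.7) and 400.5 FPKM (393.0 to 408.0) in the WT libraries. For these 2 genes both tolerized libraries were above both LPS libraries, and both LPS libraries above both naive ones. In WT naive cells the intervals implied about 5 fragments of Csf3 and about 20 of Cxcl5, so ratios to that library are imprecise.

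When the 6 libraries were placed in order of level, no neighbouring pair had overlapping intervals for any of the 5 genes, which speaks to counting error and not to spread between replicates. The share of all genes for which this held was not counted, so it is not a trait of these genes. Together the 5 genes made up 0.0799%, 2.99% and 1.34% of all FPKM in the KO libraries (naive, LPS, tolerized) and 0.00931%, 4.66% and 2.46% in the WT libraries.

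**Figure D1:**
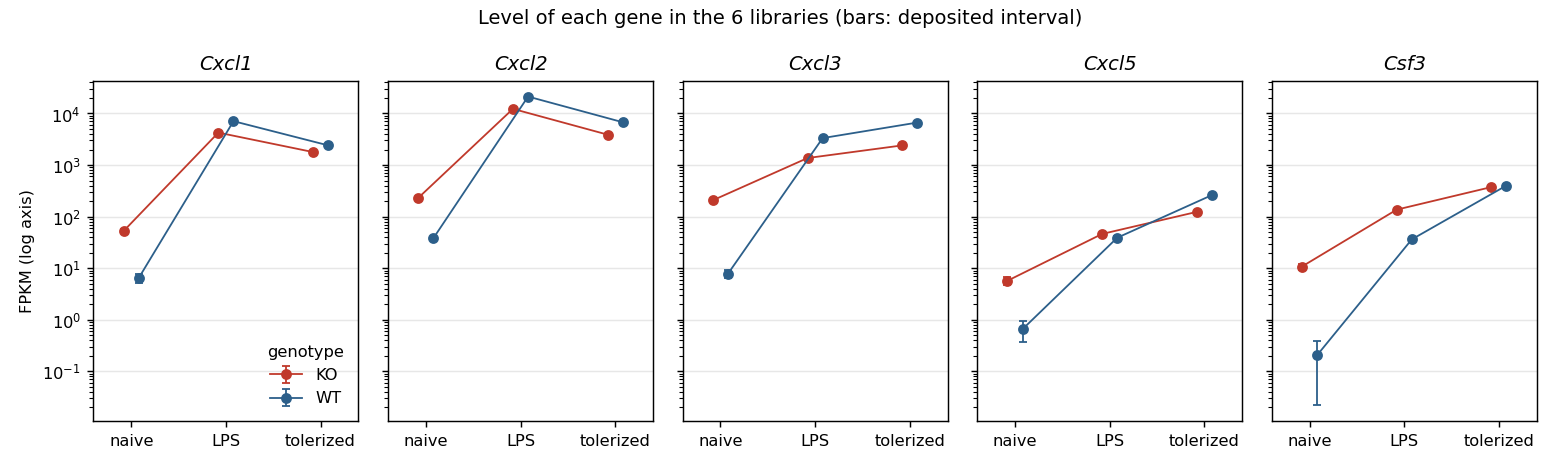
FPKM of Cxcl1, Cxcl2, Cxcl3, Cxcl5 and Csf3 (log axis) in naive, LPS and tolerized cells, with KO in red and WT in blue. Each point is 1 library, bars are the deposited intervals of counting error, and lines join the libraries of a genotype. Cxcl1 and Cxcl2 are highest with LPS, while Cxcl3, Cxcl5 and Csf3 are highest in tolerized cells in each genotype.

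LPS raised all 5 genes over naive cells. In limma's fit over all 6 libraries, with condition and genotype as terms, Cxcl1 rose by 8.10 ± 0.85 on the log2(FPKM + 1) scale (SE, Benjamini-Hochberg adjusted p = 0.00073) and Cxcl2 by 7.41 ± 0.87 (adjusted p = 0.00098). Cxcl3 rose by 5.64 ± 1.41 (adjusted p = 0.014), Csf3 by 4.25 ± 0.71 (adjusted p = 0.003) and Cxcl5 by 3.70 ± 0.65 (adjusted p = 0.0036). Of 10137 genes tested, 8.74% rose, and the median of all of them was -0.76, against which the 5 genes stood higher. Cxcl3 did not pass without the WT LPS library (4.22, adjusted p = 0.1) or without the filter on low values (adjusted p = 0.066). Its change was 2.67 without the WT naive library (limma, adjusted p = 0.0024) and 8.61 without the KO naive library (adjusted p = 0.00023). Single libraries were compared by size alone, at least 2-fold on that scale with 2 FPKM or more in either library, and all 5 genes were higher with LPS than in naive cells by this rule in KO and in WT, as were 6.96% of genes in KO and 8.15% in WT.

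The size of the response differed between the libraries of each genotype. The LPS over naive ratio of Cxcl1 was 80.6 in KO (interval ends 74.3 to 88.0) and 1090 in WT (904 to 1370). For Cxcl2 it was 53.2 in KO and 557 in WT, and for Cxcl3 6.59 in KO and 426 in WT. For these 3 genes most of the gap lay in the naive libraries, where KO exceeded WT. Csf3 had a ratio of 12.7 in KO and 176 in WT (86.2 to 1782), and Cxcl5 one of 8.09 in KO and 59.2 in WT.

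Tolerized cells also stood above naive cells for all 5 genes. Cxcl1 and Csf3 each rose by 6.69 on the log2 scale (SE 0.85 and 0.71, adjusted p = 0.0047 and 0.0033 in limma), Cxcl3 by 6.54 ± 1.41 (adjusted p = 0.02), Cxcl5 by 5.76 ± 0.65 (adjusted p = 0.0038) and Cxcl2 by 5.75 ± 0.87 (adjusted p = 0.0075). Of all genes tested 7.41% rose in this comparison, whose overall median was -0.21. Without the filter on low values Cxcl3 and Cxcl2 did not pass (adjusted p = 0.089 and 0.055), and the change of Cxcl3 was 3.57 without the WT naive library and 9.52 without the KO naive library. All 5 were also at least 2-fold higher in the tolerized than in the naive library of KO and of WT, as were 6.32% of genes in KO and 7.95% in WT.

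Set against a first LPS dose, the changes of the 5 genes after tolerization differed in sign, and 2 of them passed in the fit over all 6 libraries. Csf3 rose by 2.44 ± 0.71 in tolerized over LPS cells (limma, adjusted p = 0.037) and Cxcl5 by 2.06 ± 0.65 (adjusted p = 0.047). Cxcl3 differed by 0.91 ± 1.41 (adjusted p = 0.63), Cxcl1 by -1.40 ± 0.85 (adjusted p = 0.22) and Cxcl2 by -1.66 ± 0.87 (adjusted p = 0.17), none of which passed. Thus 2 of 5 rose and 0 fell, near the shares of all genes, of which 36.8% rose and 4.32% fell. The median of all genes was 0.51. The calls of Csf3 and Cxcl5 did not hold after each library was rescaled to its median ratio (1.84 with adjusted p = 0.1 and 1.46 with adjusted p = 0.14), where Cxcl1 and Cxcl2 stood at -2.01 and -2.26 (adjusted p = 0.13 and 0.11). Neither call held with a pseudocount of 0.1 (adjusted p = 0.11 for Csf3 and 0.088 for Cxcl5), without the filter on low values (0.13 and 0.14), or without the WT LPS, KO LPS or WT tolerized library (0.095 to 0.19). Cxcl5 also missed the threshold with a prior variance without a trend (adjusted p = 0.051). Without the WT tolerized library Csf3 stood at 1.10 and Cxcl5 at 0.96, and Cxcl2 passed instead, at -2.50 (adjusted p = 0.046). Both held without the KO tolerized library, at 3.78 for Csf3 and 3.16 for Cxcl5. That fit has WT as its only tolerized library, and WT had the larger tolerized over LPS ratio of both genes (below). It also has 1 residual degree of freedom, so it is not stronger support for the calls.

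The fit counts a genotype difference that varies with condition as spread, and such differences were widest in the naive libraries. Without the KO naive library, all 5 genes passed in tolerized against LPS cells. Csf3 rose by 2.44 ± 0.46 (limma, adjusted p = 0.011), Cxcl5 by 2.06 ± 0.34 (adjusted p = 0.0081) and Cxcl3 by 0.91 ± 0.23 (adjusted p = 0.024), while Cxcl1 fell by 1.40 ± 0.24 (adjusted p = 0.0087) and Cxcl2 fell by 1.66 ± 0.25 (adjusted p = 0.0072). In that fit 40.8% of genes rose and 5.57% fell. With rescaling as well, a setting chosen after seeing the data, Csf3, Cxcl5, Cxcl1 and Cxcl2 kept their calls and Cxcl3 stood at 0.30 (adjusted p = 0.35). Leaving out the WT naive library instead gave the same changes, as it had to. The naive library that remains is fitted exactly, so both fits rest on the same LPS and tolerized libraries and are not separate results. Both fits had 1 residual degree of freedom.

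In single libraries the tolerized over LPS ratio of Csf3 was 2.74 in KO (interval ends 2.60 to 2.89) and 11.1 in WT (10.1 to 12.1), and that of Cxcl5 was 2.68 in KO and 6.71 in WT. Cxcl3 had ratios of 1.76 in KO and 2.00 in WT. Cxcl1 was at 0.420 of its LPS level in KO and 0.340 in WT, and Cxcl2 at 0.316 in KO and 0.318 in WT. The ratio of Cxcl2 was thus nearly equal in the 2 genotypes, whereas those of Csf3 and Cxcl5 were not. By the 2-fold rule, 2 of the 5 genes were higher and 2 lower in KO, and 3 were higher and 2 lower in WT. The gene by which these counts differ is Cxcl3. Its log2 change in WT was 1.0005, just past the rule, and 0.98 between the nearest interval ends, short of it. Of all genes 24.0% were higher and 4.30% lower in KO, and 20.8% higher and 4.54% lower in WT. After rescaling, Cxcl5 and Csf3 no longer reached 2-fold in KO, leaving 0 higher and 2 lower, and Cxcl3 no longer did in WT, leaving 2 higher and 2 lower.

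In both genotypes Cxcl5 and Cxcl3, towards the first end of the cluster, were above their LPS level in the tolerized library, and Cxcl1 and Cxcl2, at the other end, below it. Between Cxcl5 and Cxcl3 lie Ppbp and Pf4, which are best known as platelet products. Pf4 had 1724, 977 and 1787 FPKM in the KO libraries (naive, LPS, tolerized) and 448, 948 and 4869 FPKM in the WT libraries (tolerized against LPS 1.62 ± 0.77, limma adjusted p = 0.14). Ppbp had 2.90 FPKM in tolerized against 6.27 FPKM in LPS cells of KO, and 7.11 against 3.66 FPKM in WT, so the genotypes went opposite ways (-0.05 ± 0.52, limma adjusted p = 0.95), and Cxcl15 at or below 0.0247 FPKM. No relation to position was tested.

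**Figure D2:**
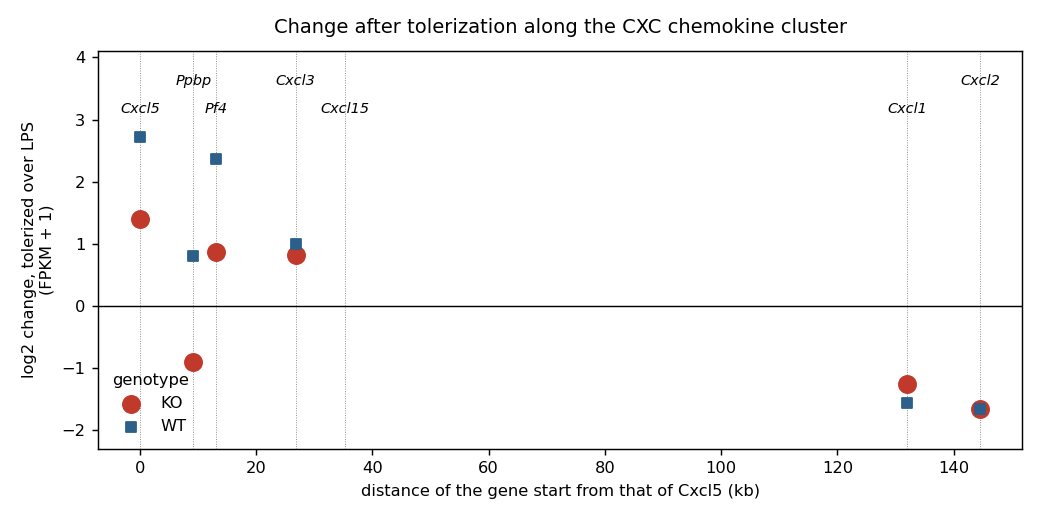
Change in tolerized over LPS cells, as log2 of FPKM + 1, against the distance of each gene's start from that of Cxcl5 in kb, with KO as red circles and WT as blue squares and 1 library pair per point. Cxcl5, Pf4 and Cxcl3 lie above 0 in both genotypes and Cxcl1 and Cxcl2 below it, where KO and WT coincide for Cxcl2. Ppbp lies below 0 in KO and above it in WT. Cxcl15 was near 0 FPKM and has no point.

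Ratios between genes of the same library do not depend on how libraries are scaled. Cxcl3 stood at 0.898, 0.111 and 0.618 of the Cxcl2 level in the KO libraries (naive, LPS, tolerized) and at 0.205, 0.156 and 0.985 of it in WT. It was therefore nearly as abundant as Cxcl2 in WT tolerized and in KO naive cells, but not with LPS alone in either genotype. Cxcl1, by comparison, stayed between 0.170 and 0.459 of Cxcl2 in all 6 libraries. Csf3 was at 0.0466, 0.0111 and 0.0962 of Cxcl2 in the KO libraries (naive, LPS, tolerized) and at 0.00539, 0.0017 and 0.0592 in WT. Cxcl5 was at 0.0247, 0.00375 and 0.0317 in KO and at 0.0172, 0.00183 and 0.0385 in WT. For Cxcl3, Cxcl5 and Csf3 the ratio to Cxcl2 was lower with LPS than in tolerized cells in each genotype, and lower than in naive cells too, although for Cxcl3 and Csf3 in WT the LPS and naive intervals overlapped.

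**Figure D3:**
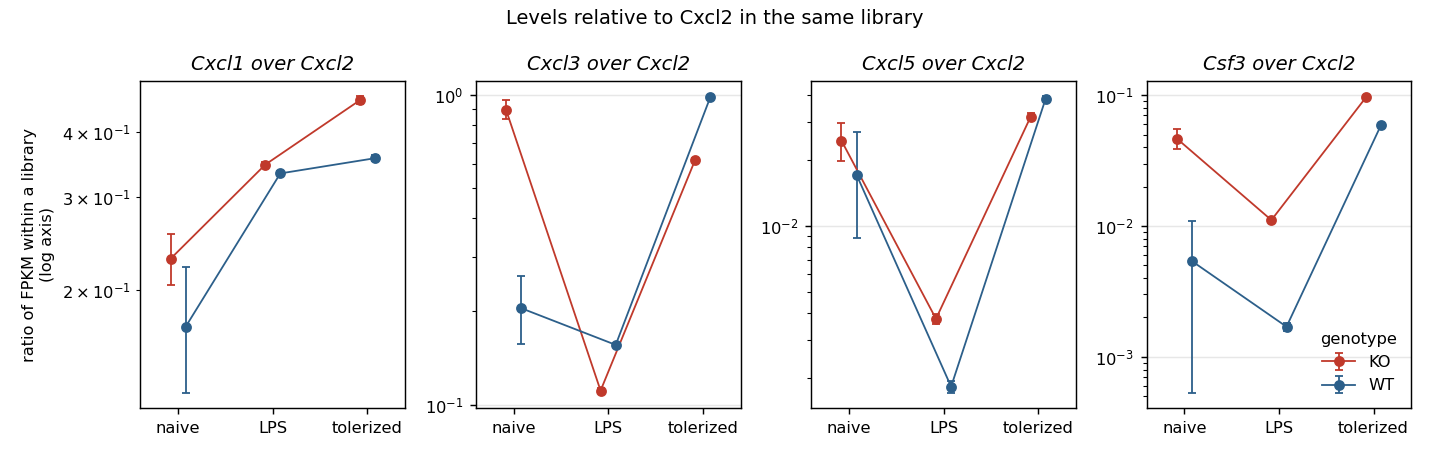
FPKM of Cxcl1, Cxcl3, Cxcl5 and Csf3 divided by that of Cxcl2 in the same library (log axes, a scale for each gene), with KO in red and WT in blue. Points are single libraries and bars the ratios of the ends of the deposited intervals. The ratios of Cxcl3, Cxcl5 and Csf3 are lowest with LPS, and that of Cxcl1 varies least.

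Cxcl2 and Cxcl3 are close copies in part. Of the stretches of 50 bases in their transcripts 61 were identical, 5.75% of those of Cxcl2 and 6.31% of those of Cxcl3, and reads from these could be assigned to either gene. Cxcl1 and Csf3 shared no such stretch with any other gene, and 3.08% of the stretches of Cxcl5 occurred in transcripts of other genes.

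The KO over WT ratios of Cxcl1, Cxcl2 and Cxcl3 lay above 1 in naive cells and below 1 with LPS, between single libraries, while those of Csf3 and Cxcl5 lay above 1 in both. In naive cells all 5 genes were at least 2-fold higher in KO than in WT, as were 3.95% of all genes. The KO over WT ratio was 26.5 for Cxcl3 (interval ends 21.7 to 33.3), 8.11 for Cxcl1 (6.25 to 10.9) and 6.04 for Cxcl2 (5.43 to 6.75). It was 8.68 for Cxcl5 (4.996 to 18.3) and 52.3 for Csf3 (23.9 to 563), both set against few fragments in WT. Even so, the KO naive levels were below those of every LPS and tolerized library for all 5 genes. The naive excess was not confined to these genes. In KO against WT naive cells Tnf had 219.9 against 28.7 FPKM and Il1a 175.3 against 14.5 FPKM. Ccl3 had 279.2 against 57.0 FPKM and Il6 7.32 against 1.25 FPKM. Nfkbiz (13.3 against 16.3 FPKM) and Zfp36 (68.2 against 108 FPKM) went the other way. All of these rose with LPS. How far the excess extends among LPS-induced genes was not tested.

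With LPS the order turned for 3 of the 4 chemokines. Cxcl3 was at 0.410 of its WT level in KO, Cxcl2 at 0.577 and Cxcl1 at 0.600, while Cxcl5 was at 1.18 and Csf3 at 3.77. By the 2-fold rule only Csf3 was higher, among 4.19% of all genes, and only Cxcl3 lower, among 3.04%. In tolerized cells all 5 ratios were below 1, with Cxcl3 at 0.361, Cxcl5 at 0.473, Cxcl2 at 0.574, Cxcl1 at 0.742 and Csf3 at 0.933. Cxcl3 and Cxcl5 were past 2-fold there, where 0.763% of all genes were lower by as much. For Cxcl1, Cxcl2 and Cxcl3 the LPS and tolerized libraries thus gave ratios on the same side of 1, opposite to the naive libraries.

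**Figure D4:**
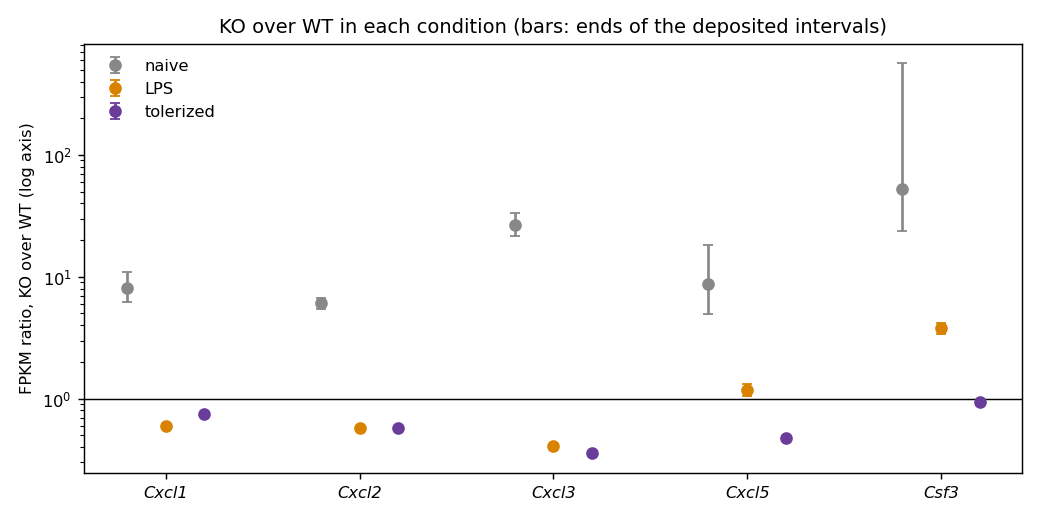
Ratio of FPKM in KO over WT (log axis) for each gene in naive, LPS and tolerized cells, each point being 1 pair of libraries and the bars the ratios of the ends of the deposited intervals. All 5 naive ratios lie above 1, from 6.04 for Cxcl2 to 52.3 for Csf3, and all 5 tolerized ratios below 1.

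Over the 3 conditions together, 0 of the 5 genes passed in KO against WT, as did 0% of all genes tested. An unadjusted p below 0.05 in limma was found for 707 genes, and for 385 to 939 under the other settings and with a library left out. Csf3 differed by 1.69 ± 0.58 (limma, adjusted p = 0.6), being higher in KO in 2 of 3 conditions. Without either tolerized library the difference was 2.59 and passed. Those fits each had 1 residual degree of freedom, so the pass rests largely on the prior variance and is weak evidence. In those fits 1.52% of genes rose without the WT tolerized library and 1.53% without the KO tolerized one. Cxcl1 differed by 0.56 ± 0.69, Cxcl2 by 0.32 ± 0.71, Cxcl3 by 0.60 ± 1.15 and Cxcl5 by 0.39 ± 0.53, with adjusted p of 0.88 to 0.93. Without either naive library these 4 values were below 0, from -1.38 for Cxcl3 to -0.42 for Cxcl5, and did not pass. A condition left with 1 library is fitted exactly. Leaving out either library of a condition therefore gives the same genotype difference, and the paired values above are not separate results. No test of a genotype difference within a condition can be had from 1 library per group.

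The naive libraries also differed in other markers. The list of large peritoneal macrophage genes, 10 of 10 in the tables, summed in naive cells to 230.3 FPKM in KO against 465.9 FPKM in WT, with 3 members higher and 7 lower in KO. Vsig4 had 1.87 FPKM in KO against 158 FPKM in WT, and Timd4 went the other way, with 108.2 FPKM in KO against 35.6 FPKM in WT. The neutrophil list, given above, summed to 329.2 FPKM in KO and 266.1 FPKM in WT, with 6 members higher and 4 lower in KO. The monocyte list, 5 genes in the tables, summed to 51.4 FPKM in KO and 44.9 FPKM in WT, but its members were split, with Ly6c2 at 33.8 FPKM in KO against 3.95 FPKM in WT, Ccr2 at 1.17 against 9.68 FPKM and Cx3cr1 at 1.31 against 12.2 FPKM. The part of these differences in the naive levels of Cxcl1, Cxcl2, Cxcl3, Cxcl5 and Csf3 was not tested. Mesothelial genes, from cells that can make Cxcl1 and Cxcl5, summed to at most 1.39 FPKM in the KO libraries and 5.57 FPKM in the WT libraries. B cell genes summed to 500.3, 262.7 and 547.7 FPKM in KO (naive, LPS, tolerized) and 661.9, 293.6 and 437.1 FPKM in WT. All 6 were lower in KO than in WT naive cells. Mast cell genes summed to 128.2, 106.4 and 191.0 FPKM in KO and 141.2, 158.2 and 199.9 FPKM in WT. Fibroblast genes summed to 8.30, 5.38 and 30.0 FPKM in the KO libraries (naive, LPS, tolerized) and to 4.49, 3.20 and 18.2 FPKM in the WT libraries. Most of the tolerized sum was Dcn, with 28.1 FPKM in KO and 10.3 FPKM in WT, whereas Col1a1, Col1a2 and Col3a1 had 0.480, 0.575 and 0.179 FPKM in KO tolerized cells against 1.51, 1.60 and 0.948 FPKM in KO naive cells. The neutrophil and monocyte lists were at their highest sum in the tolerized libraries of each genotype (183.4 FPKM in KO and 56.1 FPKM in WT for monocyte genes). The part of these lists in the tolerized levels was not tested.

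RNA of most receptors of these ligands was scarce in the macrophages. Cxcr1, Cxcr2 and Darc, the last a decoy that binds many chemokines on red cells and endothelium, were at or below 0.15 FPKM in all 6 libraries. Csf3r, the receptor of Csf3, had 57.9, 30.4 and 48.1 FPKM in the KO libraries (naive, LPS, tolerized) and 122.8, 29.4 and 53.5 FPKM in the WT libraries. It fell by 1.47 ± 0.31 with LPS against naive (limma, adjusted p = 0.0076), against the overall median of -0.76, and did not pass after rescaling (-0.63, adjusted p = 0.15) or without the WT LPS library (-1.14, adjusted p = 0.057). Its ligand moved the other way in the same comparison.

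Csf1 and Csf2, the growth factors of macrophages and of granulocytes and macrophages, were induced by LPS with Csf3. Csf2 rose by 6.06 ± 0.97 (limma, adjusted p = 0.0026) and Csf1 by 1.79 ± 0.42 (adjusted p = 0.011) over naive cells. Unlike Csf3, Csf1 fell by 1.58 ± 0.42 in tolerized against LPS cells (adjusted p = 0.029), and Csf2 differed by 0.06 ± 0.97 (adjusted p = 0.97). Both calls of Csf1 failed without the WT LPS library (1.13 and -0.92, adjusted p = 0.067 and 0.15), and the second also without the KO LPS library (adjusted p = 0.051) or the filter on low values (adjusted p = 0.098). Csf2 stood at 2.72, 48.6 and 83.6 FPKM in the KO libraries (naive, LPS, tolerized) and at 0.173, 388 and 247 FPKM in WT. Il3 and Il34 stayed at or below 0.108 FPKM.

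Of 18 transcription factors and cofactors reported for these genes, 7 rose and 3 fell with LPS over naive cells, or 13 and 1 after rescaling. Of all genes tested 8.74% rose and 54.4% fell in that comparison, or 22.6% and 24.2% after rescaling. Nfkbiz, the cofactor IkappaB-zeta needed for a subset of NF-kappaB targets, rose by 4.00 ± 0.24 (limma, adjusted p = 0.00034), and Fosl1, an AP-1 subunit, by 2.62 ± 0.39 (adjusted p = 0.002). Cebpa, a factor of myeloid identity, fell by 3.64 ± 0.45 (adjusted p = 0.0011), as did Fos (-1.46 ± 0.34, adjusted p = 0.01) and Irf3 (-1.09 ± 0.22, adjusted p = 0.0065). In tolerized against LPS cells 1 of the 18 rose, Irf3 by 0.81 ± 0.22 (adjusted p = 0.032), and 3 fell, or 0 and 4 after rescaling. Of all genes 36.8% rose and 4.32% fell there, or 8.88% and 9.28% after rescaling. Fos and Irf3 are named after their values were seen, and none of these calls of theirs held after rescaling (adjusted p = 0.13 to 0.42). Fos also failed without the WT naive or KO LPS library (adjusted p = 0.053 and 0.062), and the increase of Irf3 without any one of the LPS and tolerized libraries (adjusted p = 0.054 to 0.28) or without the filter on low values (0.067). Those that fell were Nfkbiz (-1.17 ± 0.24, adjusted p = 0.014), Junb (-1.14 ± 0.25, adjusted p = 0.017) and Nfkb1 (-1.03 ± 0.24, adjusted p = 0.019), the side on which Cxcl1 and Cxcl2 stood. These 3 calls failed without any one of the LPS and tolerized libraries (adjusted p = 0.051 to 0.13).

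Of 17 genes listed here as regulators of mRNA stability, 4 rose and 3 fell with LPS, or 12 and 1 after rescaling. Of all genes 8.74% rose and 54.4% fell there, or 22.6% and 24.2% after rescaling. The 4 include Tnip1, and the effect of the listed genes on these mRNAs was not examined. Zfp36, which encodes tristetraprolin, a protein that binds AU-rich elements and speeds decay, had 68.2, 371 and 164 FPKM in the KO libraries (naive, LPS, tolerized) and 108, 386 and 117 FPKM in the WT libraries. It rose by 2.13 ± 0.33 with LPS (limma, adjusted p = 0.0022) and fell by 1.44 ± 0.33 in tolerized against LPS cells (adjusted p = 0.019), a call that failed without the WT LPS, KO LPS or WT tolerized library (adjusted p = 0.082 to 0.13) or the filter on low values (0.059). Zc3h12a, the RNase regnase-1, rose by 2.65 ± 0.22 with LPS (adjusted p = 0.00049) and differed by -0.11 ± 0.22 after tolerization (adjusted p = 0.72). Zfp36l2, a relative of Zfp36, fell by 2.70 ± 0.22 with LPS (adjusted p = 0.00047). In tolerized against LPS cells 3 of the 17 rose and 1 fell, or 0 and 3 after rescaling, where 36.8% of all genes rose and 4.32% fell, or 8.88% and 9.28% after rescaling. The 3 were Zfp36l2 (0.89 ± 0.22, adjusted p = 0.023), Traf3ip2 (0.83 ± 0.21, adjusted p = 0.023), the IL-17 receptor adaptor Act1, and Khsrp (0.66 ± 0.21, adjusted p = 0.045), an AU-rich element binding protein, the last pair named after their values were seen. None of the 3 increases passed after rescaling, or without the WT LPS, KO LPS or WT tolerized library (adjusted p = 0.076 to 0.23), and Traf3ip2 and Khsrp did not pass without the filter on low values either (0.066 and 0.068).

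Genes listed here for the response to IL-17 and IkappaB-zeta are often grouped with the 5 genes. Whether each depends on IL-17 or IkappaB-zeta was not examined, so the counts describe the listed genes only. Of 11 tested, 8 rose with LPS and 0 fell, or 9 and 0 after rescaling, with a median of 5.94 against -0.76 for all genes. Of all genes tested 8.74% rose and 54.4% fell in that comparison, or 22.6% and 24.2% after rescaling. Lcn2, a protein that withholds iron from bacteria, stood at 84.7, 146 and 4112 FPKM in the KO libraries (naive, LPS, tolerized) and at 2.37, 39.7 and 2862 FPKM in the WT libraries. Its gain of 5.47 ± 0.88 in tolerized over LPS cells (limma, adjusted p = 0.009) was the 1 increase of the list there, in the direction of Csf3 and Cxcl5. Tnf, the inflammatory cytokine, and Ptx3, a pattern recognition protein, fell by 3.58 ± 0.71 and 2.60 ± 0.48 (adjusted p = 0.013 and 0.011). In tolerized against LPS cells 1 gene of the list thus rose and 2 fell, or 1 and 3 after rescaling. Of all genes 36.8% rose and 4.32% fell there, or 8.88% and 9.28% after rescaling. The call of Lcn2 failed without the KO LPS library (adjusted p = 0.059), and those of Tnf and Ptx3 without either LPS library (adjusted p = 0.054 to 0.081) or the filter on low values (0.065 and 0.056). Il6, a cytokine of the acute phase, differed by -1.23 ± 0.56 (adjusted p = 0.12).

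The genes whose levels followed those of each member most closely over the 6 libraries were taken by Pearson's r of log2(FPKM + 1) among 7306 genes, as a description with no test. The libraries share their conditions, so high values are common. Cxcl1 and Cxcl2 were alike (r = 0.998), and nearest to Cxcl2 were Ccl3 (0.998), a chemokine for monocytes, Nfkbib (0.998), an inhibitor of NF-kappaB, and Gadd45b (0.994). For Cxcl1 they were Nfkbia (0.997), an inhibitor that NF-kappaB itself induces, Nfkbib (0.996) and Il1a (0.996). Cxcl3 was closest to Ehd1 (0.993), Fpr1 (0.992), a receptor for bacterial formyl peptides, and Cd38 (0.990).

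Csf3 was closest to Upp1 (0.997), a uridine phosphorylase, Tarm1 (0.988) and Itgal (0.987), an integrin chain of leukocytes. For Cxcl5 these were Itgal (0.991), Bmp1 (0.991) and Lcp1 (0.990). Csf3 correlated with Cxcl5 at 0.977 and with Cxcl2 at 0.812, lower than for any other pair of the 5 genes. Upp1 had 6.74, 103 and 190.0 FPKM in the KO libraries (naive, LPS, tolerized) and 0.182, 26.5 and 179 FPKM in the WT libraries, the same order of libraries as Csf3 for all but the tolerized pair.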

How the data were processed

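Poly-A RNA of 6 peritoneal macrophage samples was sequenced from TruSeq libraries, per the labels' protocols. For each library the authors deposited FPKM values with an interval and a status in 23699 gene rows, per the file headers. Reads were processed with bcl2fastq 1.8.4, TopHat, Cufflinks and build mm9, per the submitters' processing notes. The sources used here do not give versions of TopHat and Cufflinks, the annotation or strand handling. Read counts were not used here. Read as 2 standard errors of a count, the intervals gave whole fragments within 0.01 for 70.5% to 71.2% of values below 200, so the implied depths are estimates.

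Rows not marked OK in every library (349), repeated symbols (712) and small RNA genes (791) were left out, leaving 22163. Starts in the tables count from 0 and were raised by 1. Values were analysed as log2(FPKM + 1), which understates changes of low genes. limma 3.58.1 (R 4.3.3, eBayes with trend, two-sided) was fitted to condition plus genotype with no interaction, for the 10137 genes that reached 2 FPKM in 2 or more libraries, with Benjamini-Hochberg adjustment and a threshold of 0.05. It had 2 residual degrees of freedom and 4.2 from the prior, and was tested on simulated data. Each condition had 2 libraries and each genotype 3. Nothing says that the samples came from separate animals or cultures, so p-values measure only the spread between them, which may be technical. Single libraries were compared by size, at least 2-fold with 2 FPKM or more in either. Alternatives were a pseudocount of 0.1, no filter, at least 10 FPKM, no trend, libraries rescaled by median ratios (factors 1.29, 0.69 and 1.08 for KO and 1.31, 0.75 and 1.10 for WT naive, LPS and tolerized cells) and leaving out each library.

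The 5 genes, the gene lists and the tests were chosen with earlier results of these data known. Named besides the 5 were the 3 genes most like each by Pearson's r, up to 4 genes per list with the largest changes, and the receptors, neighbours and other colony-stimulating factors. Tnip1 was named as well. Protein features were not analysed here.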

Additional observations from a re-analysis of the deposited data

Results flagged for a closer look

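For Cxcl1, Cxcl2, Cxcl3, Cxcl5 and Csf3 the KO over WT difference, on the log2(FPKM + 1) scale, had opposite signs in different conditions. These are differences between single libraries, and how they differ between conditions was not tested. In LPS less naive cells it stood at -5.85 for Cxcl3 (-1.28 in LPS and 4.56 in naive cells), at -3.58 for Cxcl1 (-0.74 in LPS and 2.84 in naive cells) and at -3.36 for Cxcl2 (-0.79 in LPS and 2.56 in naive cells). In tolerized less naive cells it stood at -6.03 for Cxcl3, -3.39 for Csf3, -3.36 for Cxcl2, -3.27 for Cxcl1 and -3.09 for Cxcl5. In tolerized less LPS cells it stood at -1.98 for Csf3 (-0.10 in tolerized and 1.88 in LPS cells) and at -1.31 for Cxcl5 (-1.07 in tolerized and 0.24 in LPS cells). The naive libraries enter 8 of these 10 values, and the WT naive levels of Cxcl5 and Csf3 rest on about 20 and 5 fragments.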

How the results depend on the processing

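Of 240 alternative values of the 5 genes, 198 kept their direction and their side of the threshold, 17 no longer passed, 11 newly passed and 14 turned round. Many could not turn round. Without a filter, with at least 10 FPKM or without a trend, the changes equal those reported and only their p-values move. The same holds when the library left out belongs to neither condition compared. Leaving out either library of a condition also repeats the KO against WT difference. The 198 is therefore not a measure of robustness. The number of the 5 genes past the threshold in tolerized against LPS cells, 2 as reported, was 0 with a pseudocount of 0.1, without a filter and with rescaled libraries, 1 without a trend, 0 to 5 with a library left out, and 4 with rescaled libraries and no KO naive library, a setting added after seeing the data. In tolerized against naive cells it was 3 without a filter, against 5. In KO against WT it was 0 to 1 with a library left out. By the 2-fold rule, KO tolerized against KO LPS had 2 with rescaled libraries, against 4, and WT tolerized against WT LPS had 4, against 5. Cxcl3 turned to -0.65 in tolerized against LPS cells without the WT tolerized library and to -0.51 without the KO LPS library, the highest value with a library left out being 2.46. KO against WT turned to -0.58, -0.80, -1.38 and -0.42 for Cxcl1, Cxcl2, Cxcl3 and Cxcl5 without either naive library (highest 1.205, 0.89, 1.64 and 1.13 with another library left out), and to -0.51, -0.72, -1.30 and -0.34 with rescaling and no KO naive library. Khsrp with LPS turned to 0.12 in that last setting. The cause was not tested. In leaving out a library, the lone sample of its condition is assumed to vary like the others. No paired analysis was possible because each group has 1 library, and replicate number 1 is shared by all 6. Depth limits the WT naive values of Csf3 and Cxcl5.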

Other observations

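CXC chemokines without the ELR motif, which draw lymphocytes and other cells rather than neutrophils, were measured too. Of 6 tested, 3 rose and 1 fell with LPS over naive cells, and 0 rose and 2 fell in tolerized against LPS cells, or 0 and 3 with rescaled libraries. Of all genes 8.74% rose and 54.4% fell in the first comparison and 36.8% rose and 4.32% fell in the second, or 8.88% and 9.28% with rescaled libraries. Cxcl10, a ligand of Cxcr3 induced by interferon, had 5.79, 5246 and 312 FPKM in the KO libraries (naive, LPS, tolerized) and 2.08, 5175 and 125 FPKM in the WT libraries. It rose by 10.15 ± 0.37 with LPS (limma, adjusted p = 0.00025) and fell by 4.71 ± 0.37 in tolerized against LPS cells (adjusted p = 0.0065), where Cxcl1 and Cxcl2 differed by -1.40 and -1.66. Cxcl9, of the same family, had 0.148, 28.3 and 12.7 FPKM in the KO libraries (naive, LPS, tolerized) and 0.492, 5.94 and 1.34 FPKM in the WT libraries. Cxcl14 fell by 1.95 ± 0.24 with LPS over naive cells (limma, adjusted p = 0.0011). In tolerized against LPS cells it fell by 0.82 ± 0.24 (adjusted p = 0.038), but did not pass without the WT LPS, KO LPS or WT tolerized library (adjusted p = 0.13 to 0.32) or the filter on low values (0.1).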
